A study of Mus musculus with 20 samples.

Results

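The 33 genes described here encode enzymes that make polyamines, pyrimidine and purine nucleotides, deoxynucleotides, serine and one-carbon units. They were chosen by gene symbol, and all 33 were among the 25869 genes listed in a mouse RNA-seq table of 20 libraries. Expression was given as CPM, that is, the reads counted on a gene scaled so that every library has the same total. Of the 10 libraries from mouse embryonic fibroblasts (MEFs), 2 were WT and 8 were dCas9a-SAM KI/+. The latter carry 1 copy of a cassette at the Rosa26 locus, driven by the CAG promoter, that encodes a catalytically dead Cas9 fused to activators and so raises transcription of a gene named by an sgRNA. Of these 8, 2 had no sgRNA, 2 carried the non-targeting sgNT and 4 carried sgRNAs for Bcl-2, with 2 libraries from each of 2 MEF lines. The 6 lymphoma lines (4 IgM-positive, 14_179_IgMp, 15_180_IgMp, 16_202_IgMp and 17_213_IgMp, and 2 IgM-negative, 18_214_IgMn and 19_216_IgMn) came from lethally irradiated mice that had received Eµ-Myc/dCas9a-SAM KI/+ fetal liver cells transduced with sgBcl-2. All 6 therefore carry a Myc transgene expressed in B cells, the activator cassette and sgBcl-2, and each mouse gave 1 line. A further 2 libraries came from primary tumours of the mice that gave lines 14_179_IgMp and 15_180_IgMp. The 2 preB-ALL libraries came from BCR-ABL1 (p190T/+) leukaemias, named P190CreERLSLErg and P190RagCreErg, and served as another B cell malignancy.

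Cells that divide must double their nucleotides and polyamines at each round. Purines and pyrimidines are built step by step from ribose phosphate, amino acids and one-carbon units carried on folate, and ribonucleotide reductase then turns ribonucleotides into the deoxynucleotides of DNA. Serine is the main donor of one-carbon units, and ornithine decarboxylase opens the polyamine pathway. Several of these enzymes are textbook targets of MYC, those of deoxynucleotide synthesis are textbook targets of E2F in S phase, and those of serine synthesis and mitochondrial one-carbon metabolism are known to respond to ATF4.

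Promoters were examined because those 3 factors bind known motifs near the start of transcription. A RefSeq promoter (GRCm38.p6, 250 bases before to 50 bases after the start) was found for 30 of the 33 genes, with none for Srm, Dhodh and Pfas. The motifs searched on both strands were the E-box CACGTG bound by MYC, the E2F motifs TTTCCCGC, TTTCGCGC, TTTGCCGC and TTTGGCGC, and the motif TGATGNAAT bound by ATF4 with a C/EBP partner. No matches overlapped each other. The E-box was in 5 of the 30 genes (16.7%) and in 8.09% of all 27018 genes with such a promoter. An E2F motif was in 2 of the 30 (6.67%) against 2.61% of all genes, and the ATF4 motif was in 0 of 30 against 1.08%. These shares describe 300-base windows and were not tested. Of the 5 E-boxes, 3 lay in purine synthesis genes (Paics, Atic and Impdh2) and the others in Sms and Tyms. The E2F motifs lay in Prps2 and Ppat.

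The promoters of the 3 purine genes with an E-box, and that of Ppat, which lies head to head with Paics on chromosome 5, are given here 5′ to 3′ on the strand of the gene, with the motifs in capitals.
Paics, chr5:76951052-76951351, plus strand: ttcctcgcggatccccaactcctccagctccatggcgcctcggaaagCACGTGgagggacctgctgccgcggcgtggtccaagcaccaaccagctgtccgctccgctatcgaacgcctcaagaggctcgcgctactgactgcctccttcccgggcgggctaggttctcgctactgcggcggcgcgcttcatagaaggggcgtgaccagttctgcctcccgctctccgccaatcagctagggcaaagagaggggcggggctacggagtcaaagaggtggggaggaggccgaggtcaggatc
Ppat, chr5:76951529-76951828, minus strand: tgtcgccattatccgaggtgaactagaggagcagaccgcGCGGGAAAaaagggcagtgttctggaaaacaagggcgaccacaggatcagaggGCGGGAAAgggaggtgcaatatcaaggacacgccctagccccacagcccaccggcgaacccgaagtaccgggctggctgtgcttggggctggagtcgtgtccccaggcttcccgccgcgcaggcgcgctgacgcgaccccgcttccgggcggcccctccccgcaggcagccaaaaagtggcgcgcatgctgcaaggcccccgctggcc
Atic, chr1:71556906-71557205, plus strand: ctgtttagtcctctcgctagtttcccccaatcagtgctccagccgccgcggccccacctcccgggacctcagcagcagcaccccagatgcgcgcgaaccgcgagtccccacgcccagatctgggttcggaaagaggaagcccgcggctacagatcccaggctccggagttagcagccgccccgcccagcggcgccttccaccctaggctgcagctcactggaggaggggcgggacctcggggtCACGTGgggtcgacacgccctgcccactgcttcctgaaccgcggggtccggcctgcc
Impdh2, chr9:108560186-108560485, plus strand: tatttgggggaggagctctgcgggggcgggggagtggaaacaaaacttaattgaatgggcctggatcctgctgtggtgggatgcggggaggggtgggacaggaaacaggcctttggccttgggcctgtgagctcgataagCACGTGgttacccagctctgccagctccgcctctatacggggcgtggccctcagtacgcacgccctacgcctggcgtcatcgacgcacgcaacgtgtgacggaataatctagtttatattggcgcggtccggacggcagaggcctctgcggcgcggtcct
In Paics the E-box begins 203 bases before the start, in Impdh2 110 bases and in Atic 7 bases before it. The E2F motifs of Ppat, both on the opposite strand, begin 211 and 158 bases before its start. Ppat, the amidotransferase that commits ribose phosphate to purines, and Paics, which carries out later steps, are transcribed in opposite directions. They overlap at their first bases, and reads there could not be divided between them where strand was not counted.

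Depth ranged from 12474885 to 26678417 counted reads per library (median 23229458), and the preB-ALL libraries were the shallowest. B lineage markers (10 genes) summed to 2539 to 5291 CPM in the lines and to 14.0 to 28.2 CPM in the MEFs, and fibroblast markers (12 genes) to 2.09 to 7.68 CPM in the lines and to 3150 to 18012 CPM in the MEFs. In preB-ALL 1 and preB-ALL 2, with B lineage markers between 12728 and 17017 CPM, the fibroblast markers summed to 3940 and 1771 CPM, with 1 and 2 of the 12 at 0. WT MEF 2 stood apart from the other MEFs, with fibroblast markers at 3150 CPM against 11881 CPM in WT MEF 1 and with myeloid markers (8 genes) at 221 CPM against 9.02 CPM. Bcl2, the targeted gene, was at 46.8 to 71.8 CPM in the sgBcl-2 MEFs and at 13.4 and 13.7 CPM with sgNT, and at 99.4 to 165 CPM in the lines. The labels give opposite mouse numbers for the 2 tumour libraries in their titles and descriptions, and libraries 20 and 21 are named here by their library number.

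**Figure D1:**
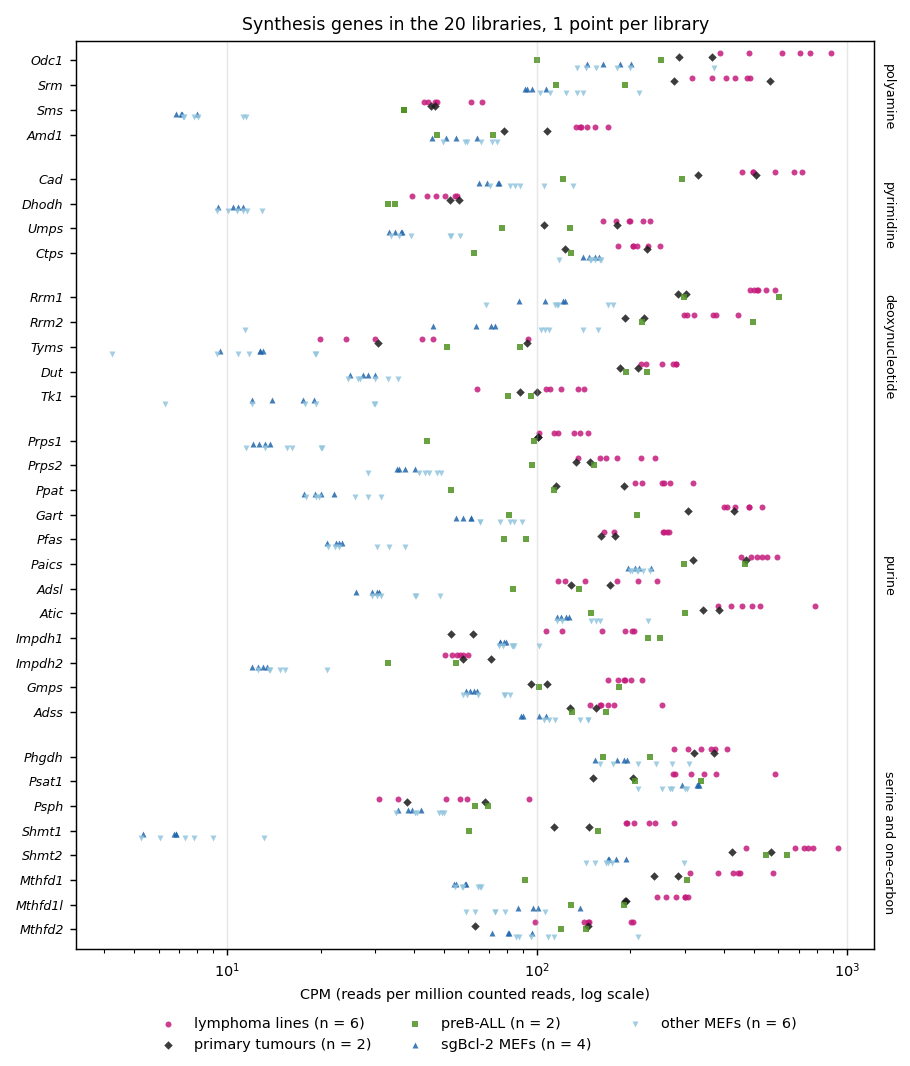
CPM (log scale, horizontal) of each synthesis gene, grouped by pathway, with 1 point per library and 1 marker per group. The lymphoma lines lie to the right of the 4 sgBcl-2 MEF libraries for 31 of the 33 genes, and overlap them for Psat1 and Psph. The share of all genes separated in this way was not counted.

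Levels of different genes were compared per kb of exon, the summed length of all exons in the protein-coding transcripts of a gene (GENCODE vM21), which may differ from the transcripts present in these cells. Within the 6 lymphoma lines the mean was highest for Shmt2, the mitochondrial serine hydroxymethyltransferase (314 ± 65.3 CPM per kb, SD, n = 6), followed by Srm, Odc1 and Paics, in the same order with the longest protein-coding transcript as the length. The ranges of Shmt2, Srm, Odc1 and Paics over the lines overlapped. The spread between lines was unequal. The coefficient of variation had a median of 16.1% over the synthesis genes and of 17.1% over the 4790 genes within the same range of mean CPM. It was smallest for Impdh2 (5.92%, 50.5 to 59.6 CPM) and largest for Tyms (63.2%), the thymidylate synthase, which ran from 19.8 CPM in line 14_179_IgMp to 93.7 CPM in line 15_180_IgMp. Psph, the phosphatase that completes serine synthesis, ran from 30.8 to 93.8 CPM (41.3%).

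The first comparison asked how the sgBcl-2 lymphoma lines differ from another B cell malignancy. Of the 33 genes, 23 were higher in the lines than in preB-ALL and 0 were lower (limma, Benjamini-Hochberg adjusted p below 0.05 over all genes tested). Over all 13961 genes tested, 20.9% were higher and 22.5% lower. The median log2 fold change was 0.93 for the synthesis genes and -0.07 for all genes. Without the scaling factor the all-gene median was -0.42, the higher share of all calls went from 48.1% to 27.8%, and 16 of the 33 genes were higher and 0 lower. With the scaling factor, the polyamine and pyrimidine pathways were higher throughout (4 of 4 and 4 of 4 genes), purine synthesis in 10 of 12, serine and one-carbon synthesis in 4 of 8 and deoxynucleotide synthesis in 1 of 5. The calls lost without it were those of Adsl, Dut, Gmps, Impdh2, Paics, Prps2 and Sms. Proliferation markers moved in the same direction, with 9 of 12 higher and a summed level of 5017 to 6412 CPM in the lines against 5369 and 3538 CPM in preB-ALL 1 and 2, and their part in the result was not tested. Of the reads counted, 5.30% to 7.18% were mitochondrial in the lines and 0% in both preB-ALL libraries, in which all 15 mitochondrial genes were at 0. With these genes left out 22 of the 33 were higher, where 2712 of all 13946 genes tested were. Medium, RNA extraction kit, sequencing run and tumour type all differ between these groups and cannot be told apart. The labels of the preB-ALL libraries name the aligner subjunc, which those of the other libraries do not. Whether reads were aligned and counted alike was not tested. In bulk RNA, fewer cells of a type and less RNA per cell cannot be told apart either.

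In the polyamine pathway, Odc1, the rate-limiting decarboxylase, had the largest difference of the 33. It was at 389 to 888 CPM (median 661) in the lines against 251 and 99.96 CPM in preB-ALL, and its log2 fold change was 2.32 ± 0.42 (SE). Amd1, which supplies the aminopropyl donor, was at 134 to 169 CPM (median 142) against 72.1 and 47.6 CPM, 3.19-fold higher (limma adjusted p = 0.000194). Every line was above both preB-ALL libraries in CPM for Odc1 and Amd1, and the share of all genes for which this held was not counted. Amd1 has a near-identical gene copy in the mouse, so its reads are uncertain. Srm, the spermidine synthase, was at 317 to 488 CPM (median 420) against 192 and 115 CPM, 3.54-fold higher (limma adjusted p = 0.00064). Sms, the spermine synthase, differed less, with a log2 fold change of 0.82 ± 0.22.

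The pyrimidine genes also separated the lines from preB-ALL without overlap in CPM, and the share of all genes that did so was not counted. Ctps, which makes CTP from UTP, was at 182 to 248 CPM (median 207) against 129 and 62.3 CPM, 3.03-fold higher (limma adjusted p = 0.00154). Umps, which forms UMP, was at 164 to 231 CPM (median 198) against 128 and 77.2 CPM, 2.55-fold higher (limma adjusted p = 0.00155). Cad, which carries out the first 3 steps, had a log2 fold change of 1.94 ± 0.33, and Dhodh, the mitochondrial step, one of 0.87 ± 0.19.

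Of the 12 purine genes, Gart, Ppat, Pfas and Atic had the 4 largest log2 fold changes. Ppat was at 206 to 317 CPM (median 255) in the lines against 113 and 52.6 CPM, 4.17-fold higher (limma adjusted p = 0.000688). Pfas, a later enzyme of the same chain, was at 164 to 267 CPM (median 256) against 91.9 and 78.2 CPM, 3.42-fold higher (limma adjusted p = 0.000489). Gart, which uses formyl-folate, had a log2 fold change of 2.16 ± 0.33. In CPM before scaling, no line overlapped preB-ALL for Ppat, Pfas, Gart, Atic or Prps1. Paics, Gmps, Impdh2, Prps2 and Adsl were higher by the test with overlapping ranges. The share of all genes without overlap was not counted. The Adsl call passed in 6 of 19 alternatives, with an adjusted p of up to 0.444 in the others (limma, without preB-ALL 2). Impdh1 and Adss did not pass. Impdh1, an isoform of the enzyme that opens the guanine branch, was at 106 to 206 CPM in the lines against 248 and 228 CPM, so that every line was below both before scaling, yet its log2 fold change after scaling was -0.21 ± 0.29.

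Among the serine and one-carbon genes Phgdh, Shmt1, Mthfd1 and Mthfd1l were higher, and Psat1, Psph, Shmt2 and Mthfd2 did not pass. Mthfd1l, the mitochondrial formyl-folate synthetase, was at 243 to 307 CPM (median 290) against 190 and 129 CPM, 2.31-fold higher (limma adjusted p = 0.00149). Phgdh, the entry to serine synthesis, was at 277 to 410 CPM (median 350) against 231 and 163 CPM, 2.26-fold higher (limma adjusted p = 0.00191). Mthfd1 and Shmt1, both cytosolic, had log2 fold changes of 1.72 ± 0.43 and 1.55 ± 0.34. Those of Shmt2 and Mthfd2, the mitochondrial pair, were 0.62 ± 0.25 and 0.57 ± 0.25, with overlapping ranges. Psph had one of -0.01 ± 0.36.

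In CPM before scaling, the deoxynucleotide genes overlapped between lines and preB-ALL without exception. Dut, which removes dUTP, passed the test at 217 to 280 CPM (median 264) against 226 and 194 CPM, 1.56-fold higher (limma adjusted p = 0.00913). Rrm1, the large subunit of ribonucleotide reductase, was at 487 to 586 CPM in the lines against 602 and 298 CPM. The 2 leukaemia libraries thus lay on either side of the lines before scaling. Rrm2, the small subunit of ribonucleotide reductase, did the same, at 298 to 446 CPM against 498 and 217 CPM. Tyms was at 19.8 to 93.7 CPM against 88.2 and 51.3 CPM.

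The 2 preB-ALL libraries were unlike each other. Of the 33 genes, 31 were higher in preB-ALL 1 than in preB-ALL 2, with a median log2 ratio of 0.71, while over the 12724 genes with a mean of at least 1 CPM 50.4% were higher in preB-ALL 1 and the median was 0.01. Shmt2 and Psph were the exceptions. Of the marker lists, 11 of 12 proliferation markers (median log2 ratio 0.60) and 11 of 12 fibroblast markers (1.13) were also higher in preB-ALL 1, as were 2 of 10 B lineage markers (-0.57), and their part in the difference was not tested. The result rests in part on preB-ALL 2: without it 10 genes were higher and 13 calls were lost, among them Odc1, Mthfd1, Shmt1, Atic and Prps1, and without preB-ALL 1 the count stayed at 23, of which 21 were shared. Of all genes 9.37% were higher without preB-ALL 2 and 17.5% without preB-ALL 1. In either fit the single preB-ALL library is assumed to vary like the lines. Without preB-ALL 2 the log2 fold change of Odc1 was 1.56 and without preB-ALL 1 it was 3.00. The same values were 1.21 and 2.59 for Cad, 1.38 and 2.86 for Gart, 0.61 and 1.86 for Prps1, 0.76 and 2.25 for Shmt1, and 0.75 and 2.598 for Mthfd1. For Ppat, Ctps and Atic the value without preB-ALL 2 was 1.41, 0.98 and 0.99. Srm, Amd1, Cad, Umps, Ctps, Ppat, Gart, Pfas, Phgdh and Mthfd1l were the 10 that passed without preB-ALL 2. With the genes at least 4-fold higher in MEFs than in the lines left out, 19 of the 33 genes were higher, where 2045 of all 11292 genes tested were.

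**Figure D2:**
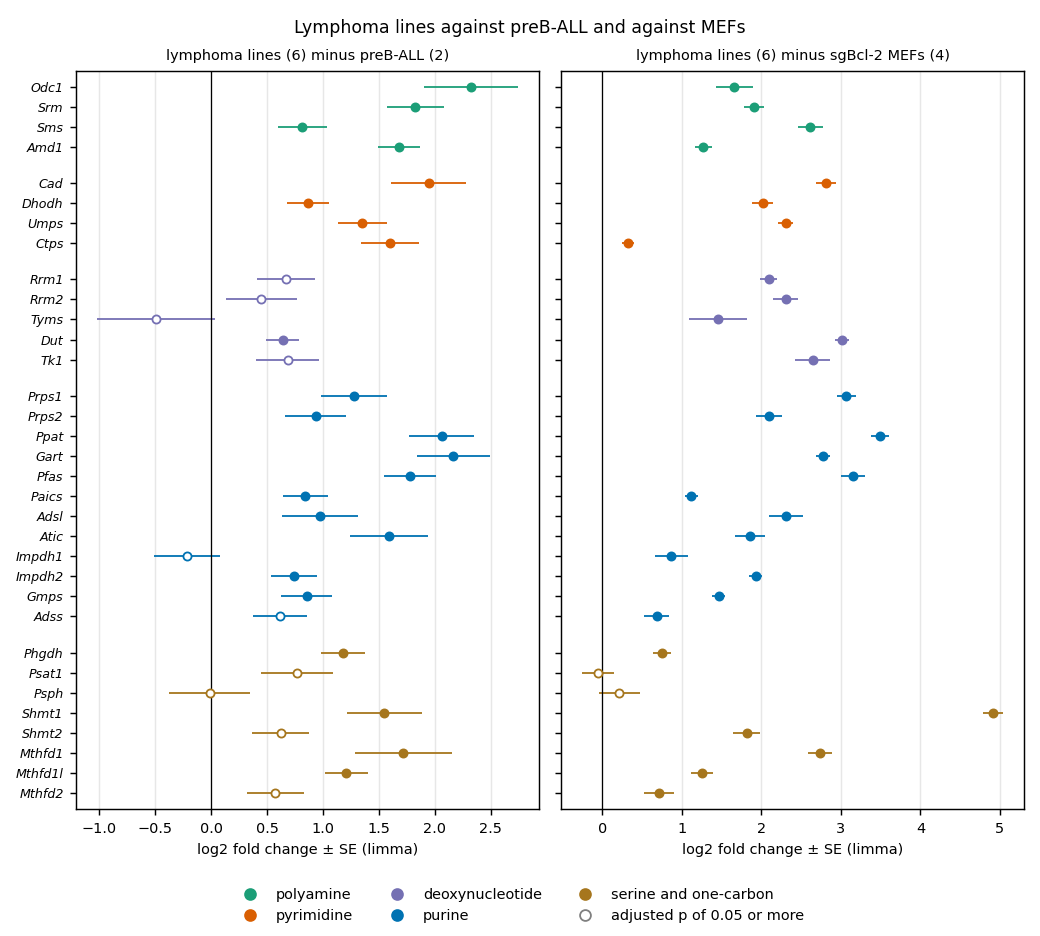
Log2 fold change with its SE (limma, TMM-scaled) of each synthesis gene for the 6 lymphoma lines against 2 preB-ALL libraries (left) and against 4 sgBcl-2 MEF libraries (right), coloured by pathway. Filled points passed an adjusted p of 0.05; 23 did so on the left and 31 on the right, all above 0.

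**Figure D3:**
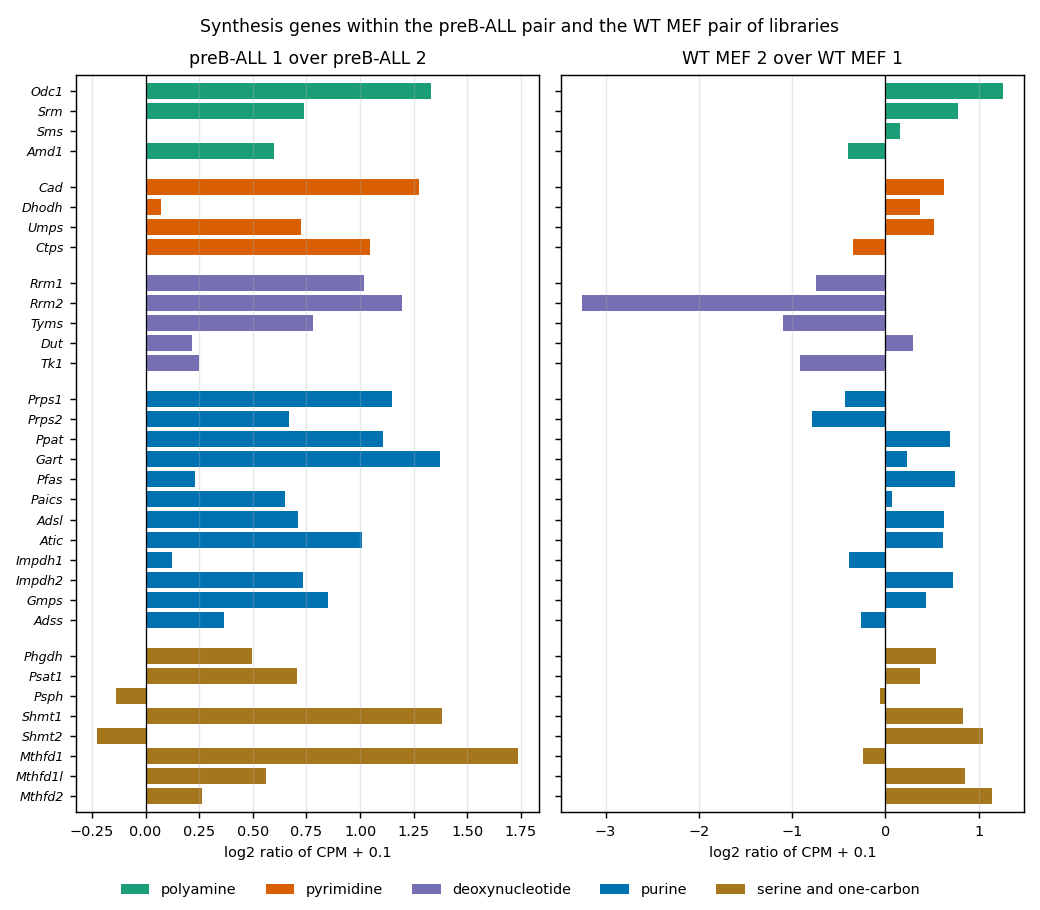
Log2 ratio of CPM + 0.1 between the 2 preB-ALL libraries (left) and between the 2 WT MEF libraries (right) for each synthesis gene, coloured by pathway. On the left 31 of 33 bars point to preB-ALL 1, and on the right Rrm2 has the longest bar, with 109 CPM in WT MEF 1 and 11.4 CPM in WT MEF 2.

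The second comparison set the lymphoma lines against MEFs that also carry sgRNA for Bcl-2, a contrast of 2 cell types. Of the 33 genes 31 were higher in the lines and 0 lower, where 36.3% of the 14620 genes tested were higher and 45% lower. The median log2 fold change was 1.93 for the synthesis genes and -0.27 for all genes. All 12 purine, 5 deoxynucleotide, 4 pyrimidine and 4 polyamine genes were higher, without overlap between groups, and so were 6 of 8 serine and one-carbon genes. The share of all genes without overlap between these groups was not counted. All 12 proliferation markers were higher too, with a summed level of 5017 to 6412 CPM in the lines and of 356 to 505 CPM in the sgBcl-2 MEFs, and their part was not tested.

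Shmt1, the cytosolic serine hydroxymethyltransferase, had the largest difference. It was at 194 to 277 CPM in the lines (median 217) against 6.83, 6.74, 5.33 and 6.82 CPM in the 4 sgBcl-2 MEF libraries, a log2 fold change of 4.92 ± 0.13 or 30.2-fold (limma adjusted p = 7.73e-11). All 10 MEF libraries were at 13.1 CPM or below. Mthfd1, which interconverts the cytosolic folates, was at 311 to 579 CPM (median 437) against 58.4, 58.7, 54.6 and 53.8 CPM, 6.66-fold higher (limma adjusted p = 3.7e-08). At the other end, Psat1 and Psph, the second and the third enzyme of serine synthesis, did not pass. Psat1 was at 275 to 586 CPM in the lines against 330, 327, 294 and 333 CPM in the MEFs, and Psph at 30.8 to 93.8 CPM against 39.3, 38.4, 35.6 and 42.1 CPM. Phgdh, the first enzyme, was higher by a log2 fold change of 0.75 ± 0.12.

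In purine synthesis Ppat, Pfas and Prps1 had the 3 largest log2 fold changes, at 3.49, 3.15 and 3.07. Ppat was at 206 to 317 CPM (median 255) in the lines against 20.1, 22.0, 19.1 and 17.6 CPM in the MEFs, 11.2-fold higher (limma adjusted p = 3.68e-10). Gart was at 399 to 530 CPM (median 459) against 61.3, 61.3, 57.8 and 54.8 CPM, 6.84-fold higher (limma adjusted p = 3.96e-10). Paics, the head-to-head neighbour of Ppat, had a log2 fold change of 1.12 ± 0.08, where Ppat had 3.49 ± 0.11. Impdh1 and Adss, the branch enzymes with the smallest values, had 0.87 ± 0.21 and 0.68 ± 0.16.

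In the deoxynucleotide pathway Dut was at 217 to 280 CPM (median 264) in the lines against 27.3, 28.5, 29.9 and 24.9 CPM in the MEFs, 8.09-fold higher (limma adjusted p = 2.08e-10). Rrm1 was at 487 to 586 CPM (median 515) against 121, 123, 106 and 87.5 CPM, 4.26-fold higher (limma adjusted p = 1.49e-08). Tk1, Rrm2 and Tyms had log2 fold changes of 2.64, 2.31 and 1.46. In CPM before scaling, the 5 genes thus separated the lines from sgBcl-2 MEFs, whereas all 5 overlapped between the lines and preB-ALL. Overlap after scaling was not examined.

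Pyrimidine and polyamine genes differed by unequal amounts. Cad was at 457 to 716 CPM (median 542) in the lines against 74.5, 75.1, 68.9 and 64.7 CPM in the MEFs, 7.04-fold higher (limma adjusted p = 4.51e-09). Umps was at 164 to 231 CPM (median 198) against 36.4, 36.5, 34.8 and 33.1 CPM, 4.94-fold higher (limma adjusted p = 2.51e-09). Ctps, by contrast, had 0.32 ± 0.08, the smallest log2 fold change that passed, and its call was lost by DESeq2, with RLE scaling and with the tumours in place of 2 lines (limma adjusted p = 0.309). Sms was at 43.1 to 66.3 CPM (median 47.2) against 7.99, 7.08, 6.83 and 7.16 CPM, 6.13-fold higher (limma adjusted p = 4.96e-08). Srm was at 317 to 488 CPM (median 420) against 96.4, 107, 92.6 and 91.5 CPM, 3.74-fold higher (limma adjusted p = 1.36e-07).

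Pairs of genes that share a reaction or follow each other were compared as ratios within each library, which cancels depth but not the lengths of the 2 transcripts. The 5 ratios were tested in 2 comparisons with an exact two-sided permutation test of the libraries, and p-values were adjusted over the 10 tests. Against the sgBcl-2 MEFs 4 of 5 differed, each with an exact adjusted p of 0.0119 and a raw p of 0.00476, the smallest possible with 6 and 4 libraries. The 4 libraries come from 2 MEF lines, and with reads summed per line, an alternative chosen after seeing the data, 0 of 5 passed (exact permutation, adjusted p = 0.0714 for those 4), where 6 against 2 units cannot go below a raw p of 0.0357. The mean log2 ratio of Shmt2 to Shmt1 was 1.68 ± 0.34 (SD, n = 6) in the lines and 4.78 ± 0.14 (n = 4) in the MEFs. Per kb of exon, mean Shmt2 stood at 77.4 and Shmt1 at 2.25 CPM per kb in the sgBcl-2 MEFs, and at 314 and 78.1 CPM per kb in the lines. The ratio of Prps2 to Prps1, isoforms of the ribose phosphate activator, was 0.54 ± 0.30 in the lines and 1.52 ± 0.07 in the MEFs. That of Srm to Sms was 3.01 ± 0.21 and 3.72 ± 0.14, and that of Impdh2 to Impdh1 was -1.53 ± 0.43 and -2.59 ± 0.05. The subunit ratio of Rrm2 to Rrm1 was -0.59 ± 0.25 and -0.80 ± 0.09 (exact permutation, adjusted p = 0.179). Against preB-ALL 0 of 5 ratios passed, with the same smallest raw p. The Srm to Sms ratio reached it (exact permutation, adjusted p = 0.0714), with 3.01 ± 0.21 in the lines and 2.00 ± 0.52 (n = 2) in preB-ALL. With the tumours in place of lines 14_179_IgMp and 15_180_IgMp, 2 of the 10 tests passed, those of Prps2 to Prps1 and Shmt2 to Shmt1 against the MEFs.

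**Figure D4:**
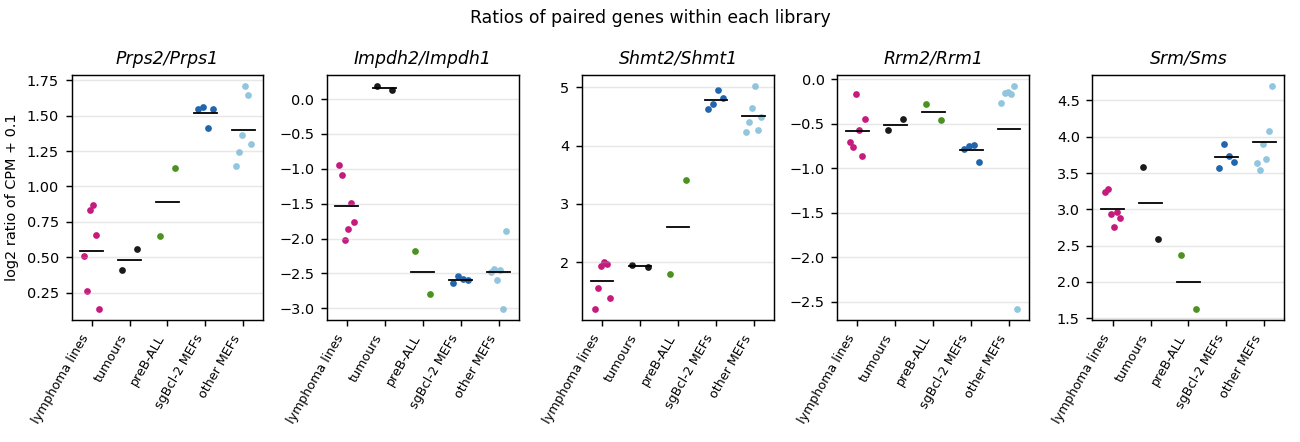
Log2 ratio of CPM + 0.1 for 5 gene pairs in every library (points) with the group mean (line); each panel has its own vertical scale. Both tumours lie above 0 for Impdh2 over Impdh1, where the lines lie between -2.02 and -0.95, and all MEFs lie far above the lines for Shmt2 over Shmt1.

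The tumours were compared with the lines of the same mice to ask what differs between tumour tissue and culture. With the libraries unpaired, 0 of the 33 genes passed (limma), where 0.33% of 12719 genes did. Of the other tools edgeR called 0 and DESeq2 7, all lower in the tumours, where DESeq2 called 8.34% of all genes lower. Against all 4 IgM-positive lines limma called 4, where 10.9% of all genes were called. At an unadjusted p below 0.05 there were 10 of the 33 genes by limma, 9 by edgeR and 12 by DESeq2, near the 25.9%, 25% and 27.6% of all genes. The median log2 fold change was -0.47 for the synthesis genes and 0.01 for all genes. Both tumours were below both lines for 15 of 33 genes and above both for 4, where 27.2% of the 11633 genes with a mean of at least 1 CPM were below and 30.1% above. Impdh1 had the smallest p, at 61.9 and 52.6 CPM in tumour libraries 20 and 21 and at 106 and 119.8 CPM in lines 14_179_IgMp and 15_180_IgMp (2.04-fold lower, limma adjusted p = 0.0711). Impdh2, its partner, was at 70.7 and 57.5 CPM in the tumours and at 55.0 and 56.2 CPM in the lines. Gmps, which acts next and converts XMP to GMP, was at 95.3 and 108 CPM in the tumours against 169 and 193 CPM.

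Pairing changed the count. The heavy chain V gene with the most reads was Ighv1-47 in tumour library 20 (90.2% of heavy chain V reads) and in line 15_180_IgMp (94.9%), and Ighv1-77 in tumour library 21 (83.8%) and in line 14_179_IgMp (98.4%), which matches the mouse numbers in the titles. With a block for the mouse by those titles, 14 genes were lower in the tumours and 0 higher, where 15% of all genes were lower. They were Impdh1, Psat1, Ppat, Rrm1, Gmps, Shmt1, Pfas, Rrm2, Cad, Odc1, Mthfd1, Mthfd2, Amd1 and Mthfd1l. With the numbers in the descriptions 0 passed. Tumour library 20 and line 15_180_IgMp were also, in a pattern picked after the values were seen, the 2 highest libraries among these 4 for Tyms (92.8 and 93.7 CPM, against 30.6 and 19.8 CPM) and for Psph (67.7 and 93.8 CPM, against 38.0 and 35.4 CPM). Marker sums differed between tumours and lines. B lineage markers summed to 10353 and 11166 CPM in the tumours against 4913 and 5291 CPM in lines 14_179_IgMp and 15_180_IgMp. Myeloid markers summed to 42.0 and 31.7 CPM in the tumours, with 0 of 8 at 0 in both, against 13.2 and 6.11 CPM in those lines. T cell markers (6 genes) summed to 64.0 and 34.1 CPM against 7.22 and 62.7 CPM, so that the groups overlapped, and proliferation markers were lower, at 4015 and 3992 CPM against 5936 and 6412 CPM in those lines. Their part in these values was not tested.

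IgM-negative lines are B lineage cells without surface IgM. Between 2 IgM-negative and 4 IgM-positive lines 0 of 33 genes passed (limma), where 0.597% of 12386 genes did, while edgeR called 0 and DESeq2 3, all higher, where DESeq2 called 1.39% of all genes higher. At an unadjusted p below 0.05 there were 6 genes by limma, 6 by edgeR and 8 by DESeq2, beside 11.3%, 11.4% and 15.8% of all genes. Sms had the smallest p, at 61.0 and 66.3 CPM in the IgM-negative lines and at 43.1, 44.4, 47.7 and 46.7 CPM in the IgM-positive lines (1.45-fold, limma adjusted p = 0.216). Both IgM-negative lines were above all 4 others for 8 of 33 genes and below them for 1, Mthfd2, where 8.22% of the 11165 genes with a mean of at least 1 CPM were above and 14.4% below.

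In MEFs the sgRNA was first compared with its control. Of the 33 genes, Psat1 was higher and Rrm2 lower with sgBcl-2 than with sgNT, where 6.61% of 14676 genes were higher and 4.24% lower. Without the scaling factor both still passed, while the higher share of all calls went from 60.9% to 38.4%. Psat1 was at 330, 327, 294 and 333 CPM with sgBcl-2 and at 252 and 268 CPM with sgNT, 1.31-fold higher (limma adjusted p = 0.0226). Rrm2 was at 70.8, 73.3, 63.3 and 46.0 CPM against 106 and 103 CPM, 1.57-fold lower (limma adjusted p = 0.0343). The groups did not overlap for either gene, but both calls were lost when either sgNT library was left out or all 10 MEF libraries were fitted together. The Psat1 call was also lost without sgBcl-2 MEF 1, and the Rrm2 call without sgBcl-2 MEF 3. With a block for the MEF line, which pairs these libraries, Mthfd1l passed as well, making 3, where 1347 of 14676 genes were higher and 801 lower. Mthfd1l was at 97.2, 86.8, 100 and 137 CPM with sgBcl-2 and at 62.9 and 78.5 CPM with sgNT.

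The sgNT MEFs differed more broadly from MEFs without an sgRNA. Of the 33 genes 24 were lower with sgNT than without an sgRNA and 0 were higher, where 20.9% of 14655 genes were lower and 20.3% higher. The median log2 fold change was -0.39 for the synthesis genes and 0.00 for all genes. All 5 deoxynucleotide and 4 polyamine genes were lower, with 8 of 12 purine, 5 of 8 serine and one-carbon and 2 of 4 pyrimidine genes. Tyms was at 11.7 and 10.8 CPM with sgNT and at 19.3 and 19.2 CPM without an sgRNA, 1.72-fold lower (limma adjusted p = 0.000902). Tk1, the thymidine kinase of S phase, was at 19.2 and 17.8 CPM against 29.9 and 29.8 CPM, 1.63-fold lower (limma adjusted p = 0.000664). For both, the 2 libraries of a group lay close together and far from those of the other group.

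Outside the thymidylate genes the differences were smaller. Umps was at 35.9 and 33.8 CPM against 52.3 and 52.8 CPM, 1.52-fold lower (limma adjusted p = 0.000556). Rrm1 was at 117 and 116 CPM against 169 and 175 CPM, 1.5-fold lower (limma adjusted p = 0.000428). Adss, which leads IMP towards AMP, was at 109 and 105 CPM against 146 and 146 CPM, 1.38-fold lower (limma adjusted p = 0.000983). The 9 genes that did not pass, Dhodh, Ctps, Paics, Prps2, Impdh1, Impdh2, Psph, Shmt2 and Mthfd1l, had log2 fold changes from -0.25 to -0.06. All 12 proliferation markers were lower with sgNT (summed level 489 to 500 CPM against 900 to 915 CPM), and their part was not tested. A block for the MEF line left 22 calls, without Mthfd1 and Psat1, where 2686 of all 14655 genes tested were lower. A fit with all 10 MEF libraries takes in the spread of the WT pair. That fit left 1 call, where 422 of all 15158 genes tested were lower.

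**Figure D5:**
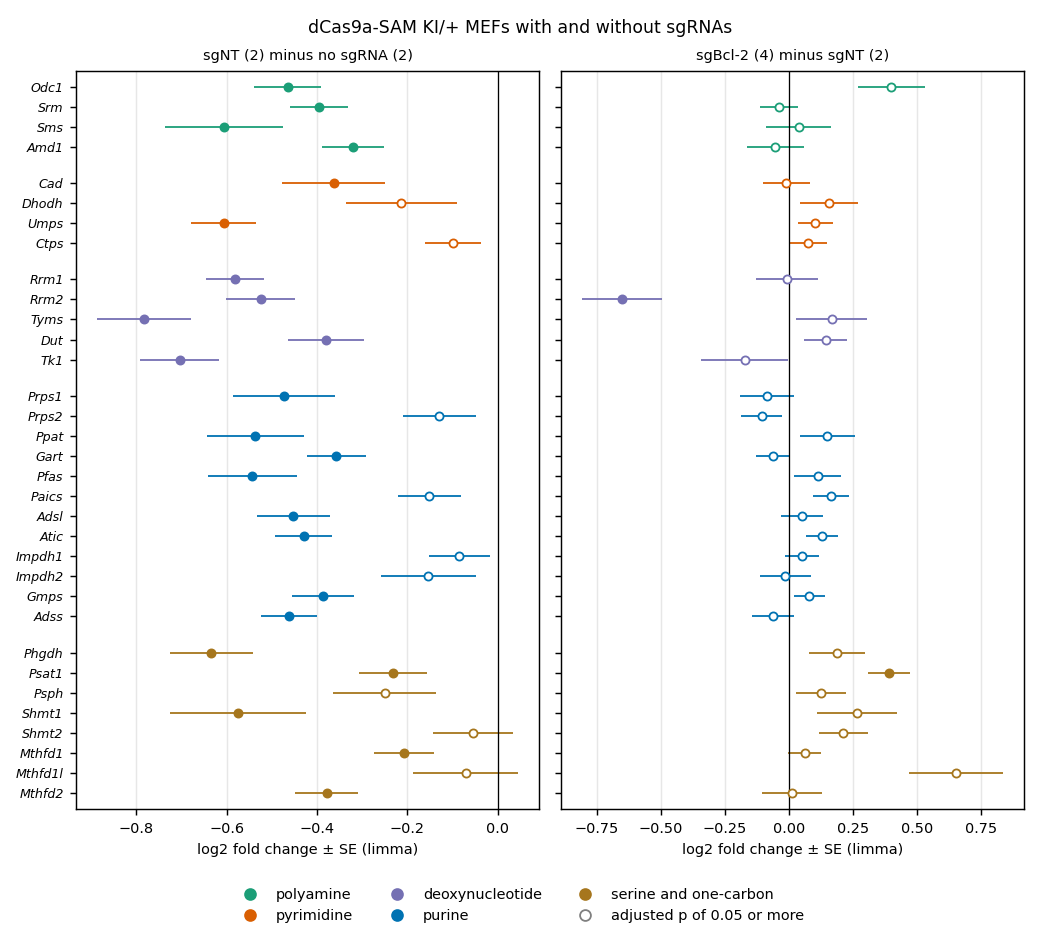
Log2 fold change with its SE (limma) of each synthesis gene in dCas9a-SAM KI/+ MEFs, for sgNT against no sgRNA (left) and for sgBcl-2 against sgNT (right), coloured by pathway. On the left all 33 values are below 0 and 24 passed (filled); on the right Psat1 and Rrm2 passed.

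Against WT MEFs no gene passed by limma with the compared libraries alone. DESeq2 called 88 of 14560 genes for sgNT and 188 of 14546 for MEFs without an sgRNA. With all 10 MEF libraries in the fit, limma called 68 and 717 of 15158 genes, with Tk1 and Tyms among the latter. For sgNT against WT, 0 of 33 genes and 0% of 14560 genes tested passed, with 0 adjusted calls among the 33 by edgeR and DESeq2 too. At an unadjusted p below 0.05 there were 0 of 33 genes by limma, edgeR and DESeq2, beside 4.05%, 4.25% and 5.87% of all genes. Atic, which closes the purine chain, had the smallest p, at 121 and 116 CPM with sgNT and at 149 and 229 CPM in WT (1.55-fold lower, limma adjusted p = 0.8). For dCas9a-SAM KI/+ without an sgRNA against WT, 0 of 33 genes and 0% of 14546 genes passed, with 0 adjusted calls by edgeR and DESeq2 too. At an unadjusted p below 0.05 there were 2 genes by limma, 2 by edgeR and 3 by DESeq2, near the 7.43%, 7.28% and 8.3% of all genes. Tk1 had the smallest p, at 29.9 and 29.8 CPM against 12.0 and 6.31 CPM (3.49-fold higher, limma adjusted p = 0.642). These fits rest on a WT pair whose members differ. Leaving out WT MEF 1 gave 21 and 20 calls, and leaving out WT MEF 2 gave 6 and 14 calls, with the single WT library assumed to vary like the other group. Of all genes 53.4% and 55.1% were called in the former fits and 11.2% and 31.8% in the latter.

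The 2 WT libraries differed from each other. WT MEF 2 was at least 1.5-fold above WT MEF 1 for 12 genes and at least 1.5-fold below it for 5, where 34.2% and 19.9% of the 13659 genes with a mean of at least 1 CPM were. The 5 lower ones were Rrm2 (11.4 against 109 CPM), Tyms (4.26 against 9.23 CPM), Tk1 (6.31 against 12.0 CPM), Rrm1 (68.2 against 114 CPM) and Prps2 (28.3 against 49.0 CPM). The higher ones included Odc1 (372 against 155 CPM), Mthfd2 (211 against 95.7 CPM) and Shmt2 (297 against 143 CPM). Atf4 was at 499 CPM in WT MEF 2 and at 178 CPM in WT MEF 1, and Myc at 139 and 66.4 CPM. Proliferation markers summed to 307 CPM in WT MEF 2 and 402 CPM in WT MEF 1, and their part was not tested. With 1 library on each side this has no replicate check, and the shares of the 33 genes are near those of all genes.

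The known regulators were read beside their targets. Myc was at 1148 to 2602 CPM in the lines (median 1716), 473 and 221 CPM in preB-ALL 1 and 2, and 50.2 to 139 CPM over the 10 MEF libraries. It was 6.77-fold higher in the lines than in preB-ALL (limma adjusted p = 0.000606) and 23.0-fold higher than in the sgBcl-2 MEFs (limma adjusted p = 4.91e-09). Without preB-ALL 2 the log2 fold change of Myc against preB-ALL was 2.12. The Eµ-Myc lines carry a Myc transgene, and its reads were not separated from those of the endogenous gene. Mycn, a paralogue of Myc, was at 0 to 0.284 CPM in the lines against 3.81 and 20.4 CPM, and was lower in the lines (limma adjusted p = 0.000408). Atf4 did not pass in either of these comparisons (without the scaling factor it was lower in the lines than in preB-ALL, with a log2 fold change of -0.74 and a limma adjusted p of 0.0293), with 145 to 253 CPM in the lines, 291 and 392 CPM in the leukaemias and 168 to 175 CPM in the sgBcl-2 MEFs. In MEFs Atf4 was at 158.7 and 156.4 CPM with sgNT and at 182.6 and 187.5 CPM without an sgRNA. There Myc was at 50.2 and 55.1 CPM against 62.6 and 58.4 CPM, and the part of either gene was not tested. E2f1 was at 75.7 to 108 CPM in the lines, 51.1 and 48.0 CPM in the leukaemias and 52.4 to 56.4 CPM in the sgBcl-2 MEFs, higher in the lines than in preB-ALL (2.32-fold, limma adjusted p = 0.00145) and than in the MEFs (1.46-fold, limma adjusted p = 0.00222). E2f3 was at 45.9 to 78.9 CPM in the lines, 82.0 and 68.7 CPM in the leukaemias and 33.8 to 36.1 CPM in the sgBcl-2 MEFs (limma adjusted p = 0.496 and 0.000415). E2f2 was at 188 to 435 CPM in the lines, 181 and 257 CPM in the leukaemias and 0.648 to 0.848 CPM in the sgBcl-2 MEFs (limma adjusted p = 1.64e-10 against the MEFs).

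Genes of salvage and turnover are given beside the 20.9% of all genes that were higher and the 22.5% that were lower than in preB-ALL. Against preB-ALL, 2 of 7 genes of polyamine turnover were higher and 3 lower, with a median log2 fold change of -0.03. Oaz1, the antizyme that inhibits ornithine decarboxylase, was 1.54-fold higher (limma adjusted p = 0.0301), and Smox, the spermine oxidase, was lower, at 0.216 to 0.996 CPM against 9.89 and 6.65 CPM (limma adjusted p = 0.00224). Of the 13 tested genes of pyrimidine salvage and deoxynucleotide turnover 4 were higher, led by the nucleoside diphosphate kinase Nme1 (2.74-fold, limma adjusted p = 0.000666), and 2 lower, led by the mitochondrial thymidine kinase Tk2 (3.48-fold, limma adjusted p = 0.00265). Of 11 genes of purine salvage and turnover 3 were higher, led by the AMP deaminase Ampd2 (1.86-fold, limma adjusted p = 0.002), and 3 lower, led by the xanthine dehydrogenase Xdh, which was at 0 to 0.0996 CPM in the lines against 14.8 and 10.9 CPM (limma adjusted p = 5.87e-06). Of 18 genes of the folate and methionine cycle 8 were higher, led by Ahcy, which clears S-adenosylhomocysteine (4.35-fold, limma adjusted p = 8.97e-05), and 3 lower, led by the glycine decarboxylase Gldc, at 0 to 0.0391 CPM against 37.7 and 335 CPM (limma adjusted p = 1.58e-05). Xdh and Smox are also found in the MEFs, at 3.57 to 43.6 and at 8.73 to 70.6 CPM, and the part of the fibroblast markers of the preB-ALL libraries in these values was not tested.

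Against the sgBcl-2 MEFs, where 36.3% of all genes were higher and 45% lower, the same lists had 2 higher and 3 lower of 7, 7 and 6 of 15, 5 and 3 of 11 and 8 and 9 of 18. Sat1, the acetyltransferase that starts polyamine breakdown, was at 14.7 to 23.0 CPM in the lines against 227 to 274 CPM in the MEFs, 15.4-fold lower (limma adjusted p = 2.47e-10), and the antizyme inhibitor Azin1 was 1.71-fold higher (limma adjusted p = 0.00288). Cda, the cytidine deaminase, was at 0 CPM in all 6 lines and at 7.64 to 11.3 CPM in the MEFs (limma adjusted p = 3.81e-11), and the thymidylate kinase Dtymk was 4.26-fold higher (limma adjusted p = 3.17e-07). Xdh was at 25.7 to 43.6 CPM in the MEFs (limma adjusted p = 2.62e-10), and Hprt, which salvages hypoxanthine and guanine, was 2.2-fold higher in the lines (limma adjusted p = 1.18e-05). The folate carrier Slc19a1 was 6.68-fold higher (limma adjusted p = 7.35e-09), and the folate dehydrogenase Aldh1l1 was at 0 to 0.152 CPM against 12.4 to 16.6 CPM (limma adjusted p = 1.88e-09).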

How the data were processed

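RNA-seq libraries (TruSeq RNA v2) were made from MEFs, lymphoma lines, primary tumours and preB-ALL. According to the deposited table and the methods, the authors aligned and counted reads on mm10 genes with Rsubread and deposited CPM per gene. The CPM values were whole multiples of 1 read in every library (100% within 0.01), so reads could be recovered for the count tests used as alternatives. The total is the depth, 12474885 to 26678417 reads, and the number of libraries limits the precision more than counting does. Where the labels name no separate culture or animal, p-values measure only the spread between these libraries.

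Genes kept by edgeR's filterByExpr were TMM-scaled, and log2(CPM + 0.1) was tested with limma 3.58.1 (trend) over the libraries compared, with Benjamini-Hochberg adjustment over all genes tested and a threshold of 0.05. A log2 fold change on this scale understates that of low genes. The script was tested on simulated data. Alternatives were edgeR 4.0.16, DESeq2 1.42.0, limma-voom, RLE or no scaling, no filter, pseudocounts of 0.5 and 1, each library left out, blocks for line or mouse, and other sets of libraries or genes.

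The 33 members, the companion and marker lists and the rules were chosen with earlier results of these data known. Values and statistics were given for the 2 members with the smallest adjusted p per pathway in the first 2 comparisons, for every called member (the 5 with the smallest adjusted p where over 10 were called) or else the member with the smallest p in the others, and for the gene with the smallest adjusted p per direction in each companion list. Other members were named after their values were seen. The dCas9a-SAM KI/+ MEF libraries share MEF line numbers in their labels, from which the block was taken; WT MEFs share only a number with them. The correlation of line differences over 13226 genes was 0.462 between sgNT and sgBcl-2, -0.0883 between no sgRNA and sgNT and -0.186 between no sgRNA and sgBcl-2. It was 0.0397, 0.0925 and 0.218 between WT and no sgRNA, sgNT and sgBcl-2. Tumours were left unpaired because their labels conflict.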

Additional observations from a re-analysis of the deposited data

Results flagged for a closer look

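Of 66 gene and group pairs examined, 5 had a library far from the others of its group, and chance alone gives about 1 in 20. Among the 6 lymphoma lines, Tk1 was at 63.87 CPM in line 14_179_IgMp, where the nearest other line was at 106.4 CPM. Adss was at 252.5 CPM in line 18_214_IgMn and at 177.1 CPM in the next highest line. Among the 4 sgBcl-2 MEF libraries, Tyms was at 9.432 CPM in library 4 and at 12.74 CPM in the nearest. Library 3 had the lowest value for Psat1, at 294 CPM against 327.1 CPM, and for Shmt1, at 5.332 CPM against 6.739 CPM.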

How the results depend on the processing

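The cause of each change below was not tested. Against preB-ALL 10 to 25 genes were called with 1 library left out, the lowest without preB-ALL 2; with tumours in place of their lines it was 17. With the tumours in place, 1553 of all 14161 genes tested were higher than in preB-ALL. Against the sgBcl-2 MEFs every setting run called 28 to 31. For the tumours DESeq2 called 7, a block pairing the mice by titles 14, and a fit against all 4 IgM-positive lines 4, where 10.9% of all genes were called. For IgM-negative lines DESeq2 called 3. For sgBcl-2 against sgNT, DESeq2 and a replicate block with libraries summed per line each called 4, the replicate block alone 3, all 10 MEFs 0 and leaving out 1 library 0 to 3. Leaving out 1 library gave 0 to 21 calls for sgNT against WT and 0 to 20 for no sgRNA against WT, where all 10 MEFs gave 2. Among all genes, sgBcl-2 against sgNT had 2086 of 14676 called by DESeq2 and 2654 of 15085 with the summed block. There the replicate block alone called 2148 of 14676 and all 10 MEFs 64 of 15158. For no sgRNA against WT, all 10 MEFs called 717 of 15158 genes. For sgNT against no sgRNA the replicate block called 22 and all 10 MEFs 1, all lower. Among all genes, 2686 of 14655 were lower with that block and 422 of 15158 with all 10 MEFs. The replicate block changed no other count. Of the ratios 2 passed with tumours in place of their lines and, in an alternative chosen after seeing the data, 0 with sgBcl-2 libraries summed per MEF line, which leaves 2 units. Fits that leave 1 library in a group take its spread from the other group.

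The sign of the log2 fold change turned for some genes that did not pass with all libraries. Against preB-ALL, Rrm2 ranged from -0.25 to 1.06 with 1 library left out (passing, with Rrm1, without preB-ALL 1), and Psph from -0.22 to 0.13, with 0.073 by edgeR and 0.00095 without the filter. Against the sgBcl-2 MEFs, Psat1 ranged from -0.20 to 0.023 and was 0.12 without scaling and 0.18 against all 10 MEFs, and Atf4 was -0.11 by DESeq2, -0.13 with RLE, -0.019 against all 10 MEFs and -0.0044 with the tumours. For sgNT against no sgRNA, Shmt2 ranged from -0.18 to 0.076 and Mthfd1l from -0.26 (passing, without sgNT MEF 2) to 0.13.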
